A study of Anser cygnoides with 12 samples.

Results

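The nuclear genes of oxidative phosphorylation were followed in the jejunum of 12 geese. The members were chosen by gene name, with earlier results of these data known. They were all genes of the deposited table whose symbol begins with NDUFA, NDUFB, NDUFC, NDUFS or NDUFV. Symbols from SDHA to SDHD and those that begin with UQCR, COX4 to COX8 or ATP5 were also taken. This rule found 49 of the 18007 genes in the table, and all 49 passed the filter on low counts. Of these, 26 encode subunits of complex I (NADH dehydrogenase), 4 encode complex II (succinate dehydrogenase), 11 encode complex V (the ATP synthase) and 6 are NDUFAF genes, which encode assembly factors of complex I and not subunits. NDUFA4 carries a complex I name but is described in the table as a subunit of cytochrome c oxidase, complex IV, and ATP5S is coupling factor B, now named DMAC2L. No symbol of the table begins with UQCR or COX4 to COX8. A further 19 subunits of complexes I, III, IV and V stand in the table under other names, mostly LOC numbers, and were named through their gene numbers in RefSeq. They are not among the 49 members and are given beside them. The complex of each was taken from its symbol alone, which counts COX7A2L, named as similar to COX7A2, with complex IV. Whether it is a subunit of that complex was not examined.

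Oxidative phosphorylation takes place in the inner mitochondrial membrane. Complexes I and II pass electrons from NADH and succinate to ubiquinone, complex III passes them on to cytochrome c and complex IV to oxygen, and complex V makes ATP from the proton gradient that complexes I, III and IV build. Most subunits are encoded in the nucleus and a small set in mitochondrial DNA, and the absorptive epithelium of the small intestine uses much of this ATP for the transport of nutrients and ions. None of the subunits encoded in mitochondrial DNA was analysed here.

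The geese were female Sichuan white geese, 250 days old at the start and kept under the same conditions, and were fed for 12 weeks. The Con group received a basal diet of corn and soybean meal, the LWG group a diet with 21.8% wheat germ and the HWG group one with 43.6% wheat germ, and 4 geese of each group were sequenced. The question for these genes was whether their transcript levels differed between the diets. The tissue was whole jejunum, so that fewer cells of a type and less RNA per cell cannot be told apart.

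The deposited counts summed to between 40159187 and 45686956 per library. Small counts gathered at the value 4, found 3148 times, beside 1250 counts of 3 and 1052 counts of 5, so that a count may stand for less or more than 1 pair of reads, and errors are given between geese only. A level is given in CPM, the count corrected for library size and for library composition (the TMM method), when geese are compared. It is given in FPKM, which also corrects for transcript length, when genes are compared. The geese differed in tissue markers as well. GATA4, a transcription factor of the proximal small intestine, was at 27.5 to 86.6 CPM in 7 geese, at 2.66 CPM in Con replicate 2 and at most 0.437 CPM in Con replicate 4, LWG replicates 1 and 2 and HWG replicate 4. HOXA10, a gene of the more distal gut, was at 5.75 to 35.6 CPM in those 5 geese and at most 0.166 CPM in the other 7. The distal marker HOXA9 and the proximal marker LCT split the geese in the same way, but the other position markers did not. GATA5, FABP1 and SLC10A2 overlapped. The distal marker FABP6 was highest in LWG replicates 3 and 4, at 15429 and 22451 CPM. The proximal marker SLC40A1 was highest in HWG replicate 4, at 217.5 CPM, and lowest in LWG replicate 4, at 81.0 CPM. The summed level of 17 enterocyte markers, of 22 on the list, was 6766 to 40765 CPM in Con, 18320 to 48804 CPM in LWG and 4638 to 30539 CPM in HWG geese. For 10 smooth muscle markers, of 13 on the list, it was 5492 to 18970 CPM in Con, 8426 to 16530 CPM in LWG and 6477 to 34024 CPM in HWG geese, and all detected markers of both lists were above 0 in every goose. Of the enterocyte sums, CALB1 alone gave 19958 CPM in LWG replicate 3 and 9301 CPM in Con replicate 3. It was at 13.7, 17.9 and 51.7 CPM in the other LWG geese. The part of these differences between geese in the results on the subunits was not tested.

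The subunits were abundant transcripts. Over the 12 geese, 47 of the 49 members had a mean above 10 FPKM and 22 had one above 100 FPKM. The highest were 4 genes of the ATP synthase, namely ATP5B at 466 ± 93.7 FPKM (SD, n = 12), ATP5F1 at 412 ± 87.5 FPKM, ATP5A1 at 399 ± 66.7 FPKM and ATP5G3 at 397 ± 120 FPKM, which ranked 112, 124, 128 and 129 among the 18007 genes. The ranges of these 4 over the geese overlapped. Within each goose, though, ATP5A1 was below ATP5B, at 0.776 to 0.979 times its FPKM. The highest of complex II were SDHD at 245 ± 37.0 FPKM and SDHA at 240.2 ± 47.0 FPKM, and the highest of complex I were NDUFA10 at 166 ± 43.0 FPKM and NDUFB1 at 126 ± 28.6 FPKM. The assembly factors were lower, from 8.33 ± 1.57 FPKM for NDUFAF6 to 23.5 ± 4.38 FPKM for NDUFAF2, and ATP5S was the lowest member at 2.43 ± 1.23 FPKM. Among the members of complex I the transcript levels ran from 13.7 FPKM for NDUFA8 to 166 FPKM for NDUFA10. The complex holds its subunits in a fixed ratio, but that is a ratio of proteins, which were not measured here. Among the 19 subunits under other names, COX4I1 of complex IV was at 715 ± 127 FPKM, above every member.

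**Figure D1:**
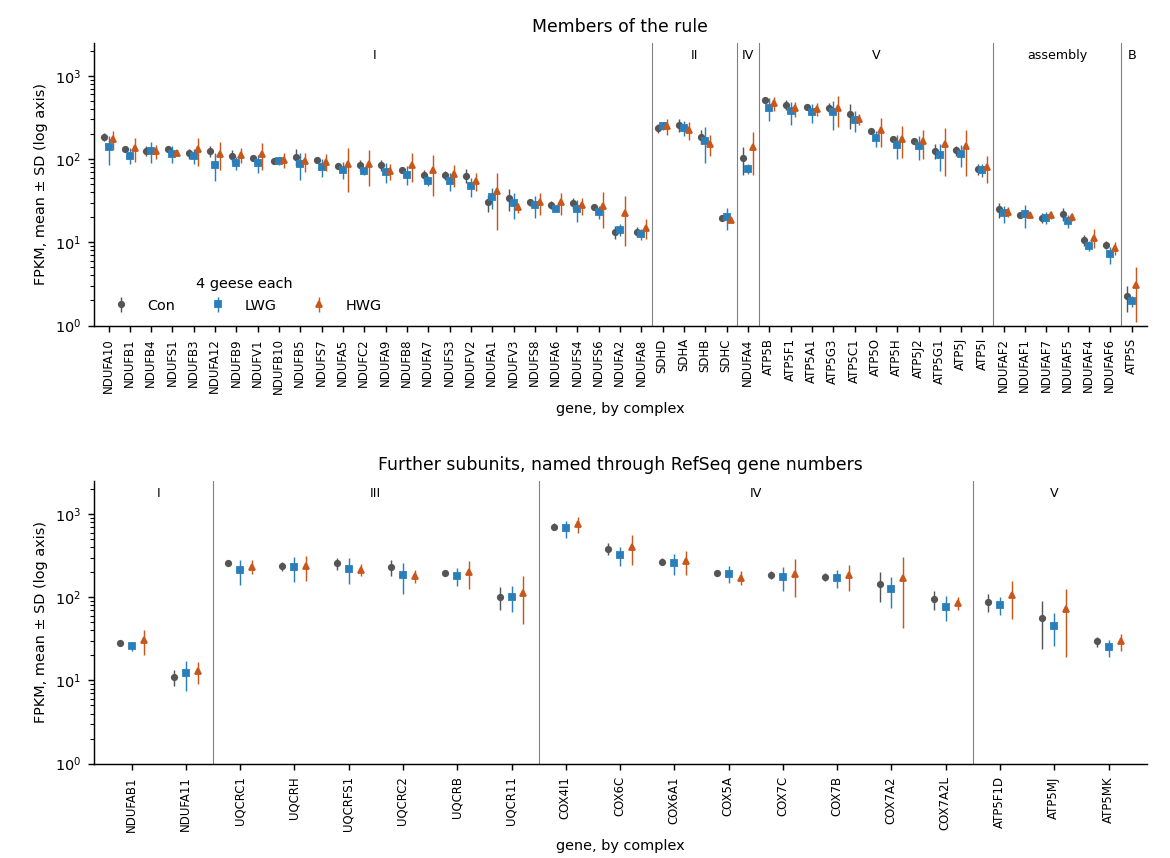
FPKM (mean and SD of 4 geese per diet, log axis) of the 49 members in the upper panel and of the 19 further subunits in the lower panel, grouped by complex (B, coupling factor B). ATP5B, ATP5F1, ATP5A1 and ATP5G3 are the highest members, ATP5S at 2.43 FPKM is the lowest, and the means of the 3 diets lie close together for most genes.

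No difference between the diets passed the test for any of the 49 members. In LWG against Con geese, no member had an adjusted p under 0.05, and none of the 14863 tested genes did either (0%). At an unadjusted p under 0.05 the members again counted 0, while 6.63% of all tested genes passed. The smallest p was that of NDUFAF6, at 0.183 (adjusted p = 0.835 from edgeR). In HWG against Con geese no member passed, whether adjusted (0% of all genes) or unadjusted (4.16% of all genes), with the smallest p of 0.0849 for NDUFA2 (adjusted p = 0.939 from edgeR). In HWG against LWG geese no member passed either, against 0% of all genes at an adjusted p and 10.6% of them at an unadjusted p under 0.05, and NDUFA4 had the smallest p of 0.0848 (adjusted p = 0.527 from edgeR). No member had groups whose CPM values did not overlap, while 2.87%, 2.31% and 4.39% of all tested genes did in the 3 comparisons. DESeq2 also gave no member an unadjusted p under 0.05, beside 8.13%, 5.05% and 12.5% of all genes in the 3 comparisons. At an adjusted p under 0.05 it called 37, 5 and 110 genes of the whole table. Limma on log2(FPKM + 0.1) gave such an unadjusted p to 1 member, NDUFA12 in LWG against Con geese (8.49% of all genes), and called no gene of the table at an adjusted p.

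The fold changes were small beside their errors. Their median over the members was −0.07 on the log2 scale in LWG against Con geese, −0.04 in HWG against Con geese and 0.04 in HWG against LWG geese, beside 0.01, −0.01 and 0.01 over all tested genes. The median standard error of a member was 0.26 in each comparison. In LWG against Con geese they ran from −0.42 for NDUFA12 to 0.31 for NDUFA1, in HWG against Con geese from −0.41 for NDUFV3 to 0.69 for NDUFA2, and in HWG against LWG geese from −0.33 for NDUFV3 to 0.69 for NDUFA4. The 95% interval of the fold change lay within 2-fold in either direction for 46, 43 and 44 of the 49 members in the 3 comparisons, and within 1.5-fold for 6, 11 and 9 of them. A difference of 2-fold was therefore outside the interval for most members, and one of 1.5-fold was not.

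**Figure D2:**
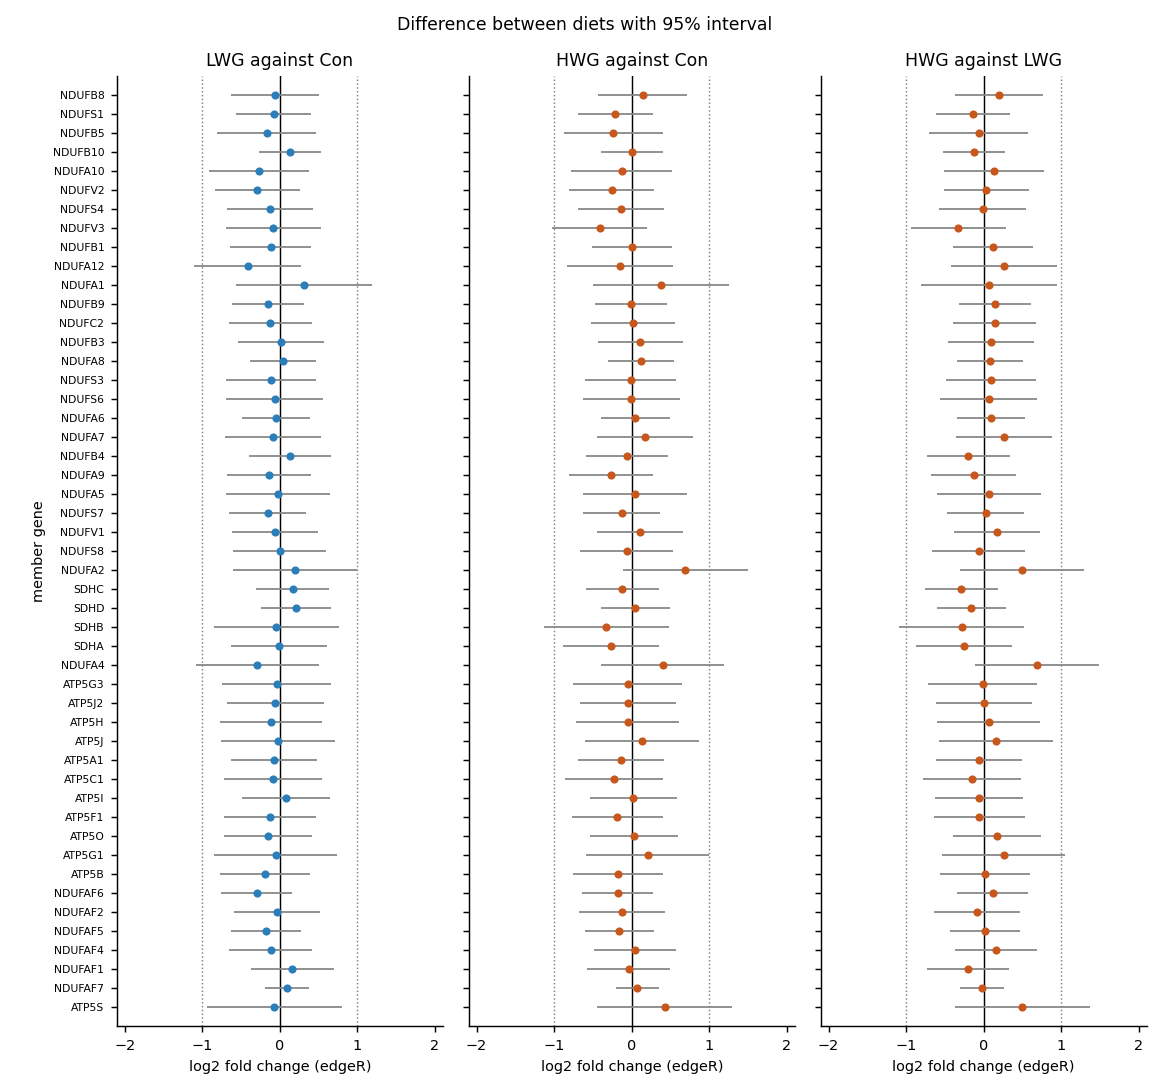
Log2 fold change of each of the 49 members (points) with its 95% interval (lines) from edgeR, for LWG against Con, HWG against Con and HWG against LWG geese, with 4 geese per diet. Every interval spans 0, and the dotted lines mark a 2-fold difference, which 46, 43 and 44 of the intervals stay within.

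The sign of the fold changes rested on single geese. The fitted level was below that of Con geese for 38 of the 49 members in the LWG group and for 28 in the HWG group, and below that of LWG geese for 20 members in the HWG group. Without LWG replicate 1, 11 of the 49 were below Con geese in the LWG group, and the median became 0.07. Without HWG replicate 1, 45 of the 49 were below Con geese in the HWG group with a median of −0.24, and 40 were below LWG geese with a median of −0.16. Without both libraries, an alternative chosen after the values were seen, 45 of the 49 were below LWG geese in the HWG group, with a median of −0.32 and 3 members at an unadjusted p under 0.05 (8.50% of all genes). These were NDUFA5, NDUFB10 and ATP5I, with a smallest adjusted p of 0.552 from edgeR. With library totals alone, 7 members were below LWG geese in the HWG group and 42 above. Their median kept its sign at 0.19, and the median of all tested genes itself moved to 0.14. In HWG against Con geese, the median of the members became 0.06 without HWG replicate 3 and also without HWG replicate 4. It became 0.02 without Con replicate 3 and 0.001 without HWG replicate 2, and it stayed negative without any other single goose.

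Complex I takes electrons from NADH through its flavin and iron-sulphur core. NDUFV1, which binds the flavin, was at 50.9, 56.6, 65.4 and 53.2 CPM in Con replicates 1 to 4, at 34.9, 44.2, 73.6 and 62.8 CPM in LWG geese and at 93.7, 49.0, 48.8 and 51.6 CPM in HWG geese. HWG replicate 1 was the highest and LWG replicate 1 the lowest, and the other HWG geese lay below or within the range of Con geese. NDUFV2, an iron-sulphur subunit beside it, was at 190.2, 152, 143 and 119 CPM in Con, 79.3, 98.4, 150.4 and 166 CPM in LWG and 151, 149, 121 and 86.1 CPM in HWG geese. The low values were those of LWG replicates 1 and 2 with HWG replicate 4, and the log2 fold change in LWG against Con geese was −0.29 (SE 0.25, edgeR adjusted p = 0.885). NDUFS1, the largest iron-sulphur subunit, had 391 ± 45.7 CPM (SD, n = 4) in Con, 370.4 ± 116 CPM in LWG and 337 ± 47.5 CPM in HWG geese, and its lowest goose was LWG replicate 1 at 236 CPM. NDUFS3, NDUFS7 and NDUFS8, the remaining core subunits of the list, spread in the same way, with a highest goose at 2.39, 2.27 and 2.56 times the lowest.

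Among the accessory subunits of complex I, NDUFA12 had the lowest fold change in LWG geese. It was at 72.5, 78.0, 95.8 and 57.1 CPM in Con, 32.7, 40.7, 88.4 and 65.3 CPM in LWG and 105, 63.5, 59.7 and 44.1 CPM in HWG geese. LWG replicates 1 and 2 lay below all Con geese while the others overlapped with them, and the log2 fold change was −0.42 (SE 0.32, edgeR adjusted p = 0.848). Without LWG replicate 3 it was −0.72 (adjusted p = 0.844). NDUFA10 was at 370.1, 319.6, 325 and 330.1 CPM in Con, 142, 202, 379 and 395 CPM in LWG and 395, 341, 281 and 209 CPM in HWG geese. Here the LWG group split into a low and a high pair on either side of the narrow Con range, and the log2 fold change was −0.27 (SE 0.30, edgeR adjusted p = 0.927). NDUFB1 of the membrane arm had 84.0 ± 7.82 CPM in Con, 77.2 ± 23.0 CPM in LWG and 84.0 ± 27.5 CPM in HWG geese.

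NDUFA2 had the largest fold change of any member in HWG against Con geese, and 1 goose carried it. It was at 3.56, 4.51, 5.93 and 3.78 CPM in Con, 4.15, 4.21, 6.77 and 5.25 CPM in LWG and 13.3, 3.85, 4.45 and 7.14 CPM in HWG geese. HWG replicates 1 and 4 lay above all Con geese and the other 2 within their range. The log2 fold change was 0.69 against Con geese (SE 0.37, edgeR adjusted p = 0.939) and 0.49 against LWG geese (SE 0.37, adjusted p = 0.641). Without HWG replicate 1 it was 0.24 and 0.04, and without HWG replicate 2 the value against Con geese was 0.90 (adjusted p = 0.995). NDUFV3, a small subunit of the flavin module, was at 77.4, 40.6, 55.6 and 39.0 CPM in Con, 36.8, 34.7, 49.2 and 79.7 CPM in LWG and 46.9, 37.7, 43.7 and 31.3 CPM in HWG geese. Its high values were those of Con replicate 1 and LWG replicate 4, and its log2 fold changes in the HWG group were −0.41 against Con geese (SE 0.28, edgeR adjusted p = 0.939) and −0.33 against LWG geese (adjusted p = 0.693). Without LWG replicate 4 the latter was 0.02. NDUFA9 had 155 ± 24.9 CPM in Con and 129 ± 30.1 CPM in HWG geese, a log2 fold change of −0.27 (SE 0.25, edgeR adjusted p = 0.939).

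The 6 assembly factors of complex I, which are not part of the finished enzyme, had a highest goose at 1.32 to 2.74 times the lowest. NDUFAF6 was at 17.1, 13.0, 15.8 and 12.8 CPM in Con, 11.3, 14.7, 12.2 and 9.48 CPM in LWG and 15.5, 11.1, 15.4 and 9.67 CPM in HWG geese. Of the LWG geese, 3 lay below all Con geese and 1 within their range, and the log2 fold change was −0.30 (SE 0.21, edgeR adjusted p = 0.835). NDUFAF7, a methyltransferase that modifies a core subunit, was the steadiest member, at 85.9 to 113 CPM in all 12 geese.

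**Figure D3:**
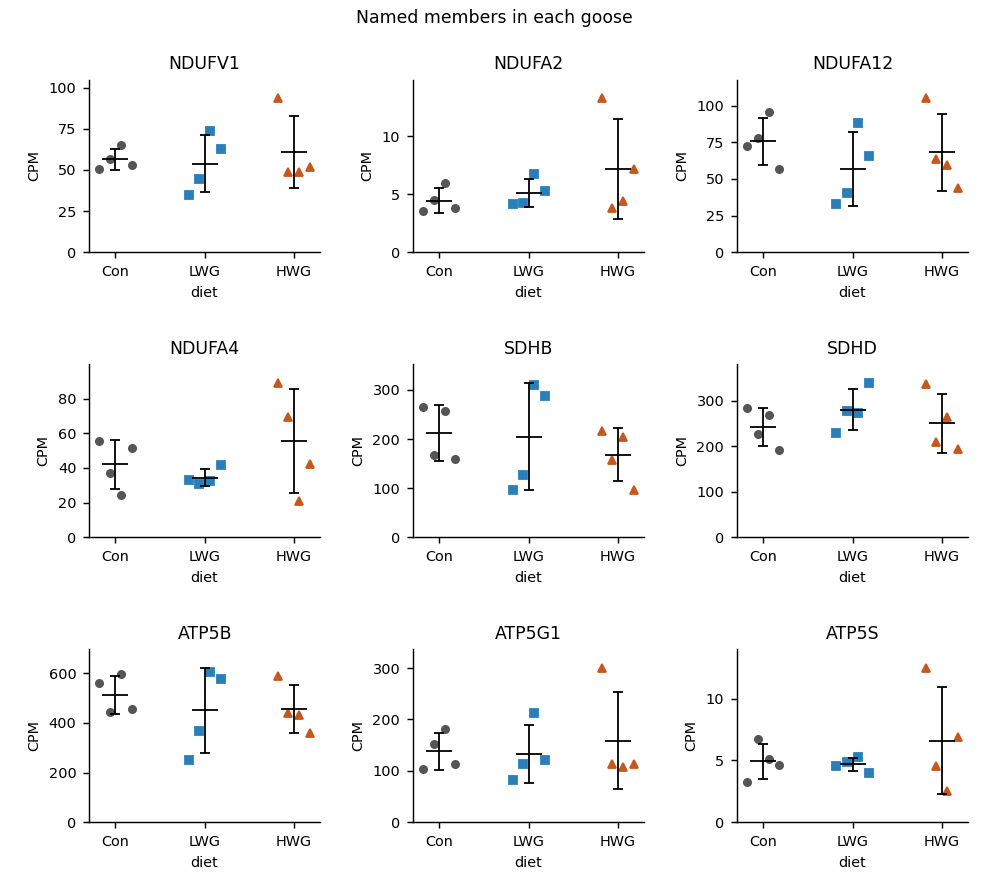
CPM of 9 named members in each goose (points), with the mean and SD of the 4 geese of each diet (black bars). The groups overlap in every panel, and the highest HWG point of every panel is HWG replicate 1, for example 13.3 CPM of NDUFA2 and 300.3 CPM of ATP5G1.

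Complex II joins the tricarboxylic acid cycle to the electron chain. SDHB, its iron-sulphur subunit, was at 264, 166, 257 and 159.7 CPM in Con, 97.0, 126, 310.1 and 287 CPM in LWG and 217, 158, 204 and 95.5 CPM in HWG geese. The LWG group held both the highest and nearly the lowest values, and HWG replicate 4 was the lowest. SDHA, the flavin subunit that oxidises succinate, had 854 ± 244 CPM in Con, 846 ± 239.9 CPM in LWG and 707 ± 222 CPM in HWG geese. SDHC and SDHD anchor the enzyme in the membrane. SDHD was at 284, 228, 269 and 192 CPM in Con, 229, 277, 275 and 339.6 CPM in LWG and 337, 209, 265 and 193 CPM in HWG geese, and its log2 fold change in LWG against Con geese was 0.20 (SE 0.21, edgeR adjusted p = 0.914). It was 1 of the 11 members whose fitted level was higher in LWG than in Con geese. SDHC was at 17.5 to 37.7 CPM, highest in LWG replicate 3, and its log2 fold change in HWG against LWG geese was −0.29 (SE 0.22, edgeR adjusted p = 0.647). All 4 members of complex II were lower in the HWG than in the LWG group, with a median log2 fold change of −0.27, and an unadjusted p under 0.05 was reached by none of them. The fold change of SDHC was 0.03 when LWG replicate 3 was left out.

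NDUFA4 was the only member of complex IV and had the largest fold change in HWG against LWG geese. It was at 55.8, 37.1, 24.5 and 51.3 CPM in Con, 33.1, 30.8, 32.2 and 41.7 CPM in LWG and 89.1, 69.8, 20.7 and 42.5 CPM in HWG geese. HWG replicates 1 and 2 lay above all other geese and HWG replicate 3 below them, so that the HWG group spanned the other groups. The log2 fold change was 0.69 against LWG geese (SE 0.37, edgeR adjusted p = 0.527), with a 95% interval from −0.11 to 1.49, and 0.40 against Con geese (adjusted p = 0.939). Without HWG replicate 3 these were 0.999 (adjusted p = 0.0996) and 0.70 (adjusted p = 0.421). NDUFA4 did not share the order of geese seen in the other subunits. Its highest geese, HWG replicates 2 and 1, had a median of the smooth muscle markers at 1.36 and 0.70 on the centred log2 scale, and its lowest, HWG replicate 3 and Con replicate 3, had one of −0.90 and −1.03. The part of smooth muscle in the level of NDUFA4 was not tested.

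Complex V turns the proton gradient into ATP. ATP5B, the catalytic beta subunit of its F1 head, was at 559, 445, 598 and 454 CPM in Con, 249, 368, 606 and 579 CPM in LWG and 588, 442, 433 and 359.6 CPM in HWG geese. LWG replicate 1 was the lowest goose and LWG replicate 3 the highest, so that the LWG group enclosed the other groups. ATP5A1, the alpha subunit, was at 951, 829.9, 1102 and 843 CPM in Con, 534, 736, 1193 and 1066 CPM in LWG and 1064, 784, 897 and 653 CPM in HWG geese, with the same lowest and highest goose. ATP5F1, the b subunit of the peripheral stalk, had 417 ± 69.2 CPM in Con, 381 ± 149 CPM in LWG and 367 ± 81.4 CPM in HWG geese. The fitted level in LWG geese was below that of Con geese for 10 of the 11 members of complex V, with a median log2 fold change of −0.08, and none had an unadjusted p under 0.05.

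ATP5G1 and ATP5G3 encode the same mature subunit c of the membrane ring with different import sequences, so that reads of their shared stretch may have been divided uncertainly. ATP5G3 was at 238, 300.2, 312 and 251 CPM in Con, 142, 202, 424 and 302 CPM in LWG and 430.1, 219, 218 and 194 CPM in HWG geese. ATP5G1 was at 104, 151, 182 and 113 CPM in Con, 82.0, 114, 213 and 120.4 CPM in LWG and 300.3, 113, 107 and 113 CPM in HWG geese. For both genes HWG replicate 1 was the highest and stood apart from the other HWG geese. ATP5G1 held 23.2% ± 2.34 (SD, n = 4) of the FPKM of the pair in Con, 23.8% ± 2.98 in LWG and 25.9% ± 3.03 in HWG geese, and 19.6% to 29.98% in single geese.

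Ratios within a library, which do not depend on its depth, were compared for this pair and for ATP5A1 over ATP5B and SDHA over SDHB, chosen after the values were seen. ATP5A1 over ATP5B was 0.8285 ± 0.0353 in Con, 0.908 ± 0.0571 in LWG and 0.852 ± 0.0619 in HWG geese. SDHA over SDHB was 1.40 ± 0.177, 1.61 ± 0.464 and 1.499 ± 0.347, and it stood at 2.04 and 1.98 in LWG replicates 1 and 2 and at 1.22 and 1.20 in LWG replicates 3 and 4. None of the 9 comparisons passed a two-sided exact permutation test, in which 4 against 4 geese cannot go below 0.0286. Their p-values ran from 0.114 to 0.771 by this exact test, and all were at least 0.707 after adjustment over the 9.

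ATP5S had the widest range among the members, with a highest goose at 4.98 times the lowest. It was at 3.26, 6.72, 5.08 and 4.62 CPM in Con, 4.57, 4.87, 5.29 and 3.97 CPM in LWG and 12.5, 4.56, 2.50 and 6.85 CPM in HWG geese. The HWG group held both extremes, and the log2 fold change was 0.42 against Con geese (SE 0.40, edgeR adjusted p = 0.939) and 0.50 against LWG geese (adjusted p = 0.668). Without HWG replicate 1 it was −0.06 and 0.02, and without HWG replicate 3 it was 0.80 against LWG geese (adjusted p = 0.221).

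The 19 subunits under other names filled in complexes III and IV. Of the 6 of complex III, UQCRFS1, the Rieske iron-sulphur protein, was at 293, 205, 226 and 215 CPM in Con, 126, 159, 287 and 311 CPM in LWG and 189, 214, 213 and 139 CPM in HWG geese. LWG replicate 1 was its lowest goose and LWG replicate 4 its highest, and the LWG group enclosed the other groups. All 6 were lower in HWG than in LWG geese, with a median log2 fold change of −0.10. Of the 8 of complex IV, COX4I1, a regulatory subunit, was at 649, 524, 660.3 and 471 CPM in Con, 373, 520, 764 and 736 CPM in LWG and 792, 523, 598 and 468 CPM in HWG geese. LWG replicate 1 was the lowest and HWG replicate 1 the highest, an order that 22 of the 49 members shared. COX6A1 and COX7A2 are the forms of their subunits found in most tissues, in contrast to heart and muscle forms, and stood at 266 ± 60.5 and 147 ± 80.8 FPKM over the 12 geese. None of the 19 had an unadjusted p under 0.05 in any comparison, the smallest being 0.165 for COX5A in HWG against LWG geese (adjusted p = 0.610 from edgeR).

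The members moved together from goose to goose. Pearson's r between the log2 CPM values of 2 members over the 12 geese had a median of 0.670 across the 1176 pairs, and 96.3% of the pairs were above 0, while pairs of all tested genes had a median of −0.002. The genes share their libraries, so that these values are descriptions. The median was 0.753 within complex I, 0.685 within complex II, 0.877 within complex V and 0.183 among the assembly factors, and it was 0.817 between members of complex I and members of complex V. It was 0.557 over the 10 geese left without LWG replicate 1 and HWG replicate 1. ATP5H, a subunit of the peripheral stalk, followed the median of the other members most closely (r = 0.98 over 12 geese), and NDUFAF7 (r = 0.07), NDUFA4 (r = 0.27), NDUFAF6 (r = 0.28) and ATP5S (r = 0.31) the least.

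**Figure D4:**
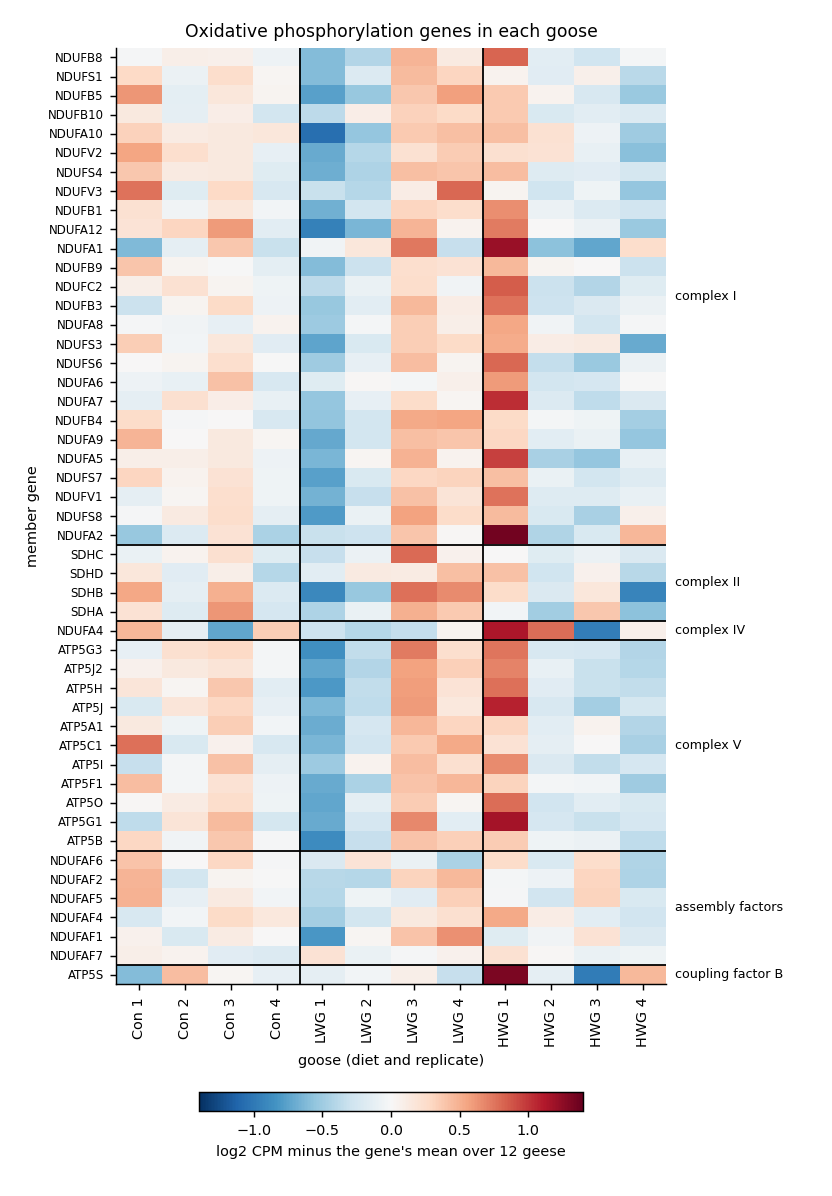
Log2 CPM of each of the 49 members (lines) in each of the 12 geese (columns), minus the mean of the gene over the geese, with red above and blue below the mean. The column of LWG replicate 1 is blue for most genes and holds the lowest value of 35 members, and that of HWG replicate 1 is red and holds the highest value of 30.

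LWG replicate 1 had the lowest CPM for 35 of the 49 members and HWG replicate 1 the highest for 30. For the 19 further subunits the same geese were lowest in 15 and highest in 10. The median of the members on the centred log2 scale was −0.61 in LWG replicate 1 and −0.24 in LWG replicate 2, but 0.40 and 0.24 in LWG replicates 3 and 4. It was 0.45 in HWG replicate 1 and between −0.25 and −0.15 in the other HWG geese, and it lay between −0.07 and 0.20 in the Con geese. The groups overlapped, with means of 0.07, −0.05 and −0.03 and SDs of 0.12, 0.46 and 0.32 for Con, LWG and HWG geese. The members together held from 0.448% of the counts of a library in LWG replicate 1 to 0.886% in HWG replicate 1. This share was 0.712% ± 0.0455 (SD, n = 4) in Con, 0.621% ± 0.148 in LWG and 0.672% ± 0.146 in HWG geese. The highest goose was at a median of 2.43 times the lowest over the members, near the 2.57 of all tested genes.

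The complexes did not follow the geese in exactly the same order. HWG replicate 1 had a median of 0.69 for complex V, 0.61 for the further subunits of complex IV and 0.53 for complex I, but of 0.13 for complex II. LWG replicate 3 was the highest goose for complex II, at 0.63, and for the further subunits of complex III, at 0.52, where HWG replicate 1 was at 0.44. The members were also split by transcript length, after the values were seen. Length was not read from an annotation. It was worked back from the deposited values, as the count over the FPKM and the library total. In HWG replicate 1, the 24 members with shorter transcripts had a median of 0.75 and the 25 with longer ones 0.30. The shorter members were the lower in Con replicate 1 (0.04 against 0.28), LWG replicates 2 and 4 and HWG replicates 2 and 3. They were the higher in the other geese. When all tested genes were divided into 5 equal classes by length, 39 of the 49 members fell into the class of the shortest and none into that of the longest. In HWG replicate 1 the genes of the shortest class had a median of 0.27 and those of the longest −0.16. In LWG replicate 1 the shorter members had a median of −0.58 and the longer ones −0.64, while the class of the shortest genes had −0.06. The part of transcript length in the high level of HWG replicate 1 was not tested.

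Other mitochondrial genes were set beside the members. Of 13 tested genes of the tricarboxylic acid cycle, of 14 on the list, none had an unadjusted p under 0.05 in any comparison. Their median was −0.53 in LWG replicate 1, 0.42 in LWG replicate 3 and 0.49 in LWG replicate 4 on the centred log2 scale, where the members stood at −0.61, 0.40 and 0.24, and −0.02 in HWG replicate 1, where the members stood at 0.45. Their median log2 fold change was 0.01 in LWG and −0.23 in HWG against Con geese and −0.32 in HWG against LWG geese, with the smallest p for OGDH, a subunit of the oxoglutarate dehydrogenase complex (log2 fold change 0.45 in LWG against Con geese, adjusted p = 0.762 from edgeR). The list of assembly factors of complexes I to V held 53 genes, of which 35 were tested, including the 6 members. The list of other electron carriers, such as CYCS (cytochrome c), held 9, of which 6 were tested. None of the tested genes of these lists had an unadjusted p under 0.05 either. Their median log2 fold changes in LWG against Con, HWG against Con and HWG against LWG geese were −0.08, −0.06 and 0.05 for the assembly factors and 0.04, −0.27 and −0.27 for the carriers.

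Of 17 regulators of mitochondrial biogenesis on the list, 14 were tested. Of these, 1 had an unadjusted p under 0.05 in LWG against Con geese (6.63% of all genes). The same gene had it in HWG against LWG geese (10.6%), and none had it in HWG against Con geese. It was PPARGC1A, the coactivator PGC-1alpha that promotes mitochondrial biogenesis in mammals, which was at 8.70, 13.3, 16.2 and 10.4 CPM in Con, 9.198, 18.3, 19.7 and 31.6 CPM in LWG and 8.61, 9.22, 11.3 and 11 CPM in HWG geese. LWG replicates 2 to 4 lay above all Con and HWG geese and LWG replicate 1 within their range. The log2 fold change was 0.70 in LWG against Con geese (adjusted p = 0.745 from edgeR) and −0.97 in HWG against LWG geese (adjusted p = 0.376). The regulators as a list had medians of −0.08, −0.04 and −0.04 in the 3 comparisons, and over the geese their median ran only from −0.13 to 0.13.

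**Figure D5:**
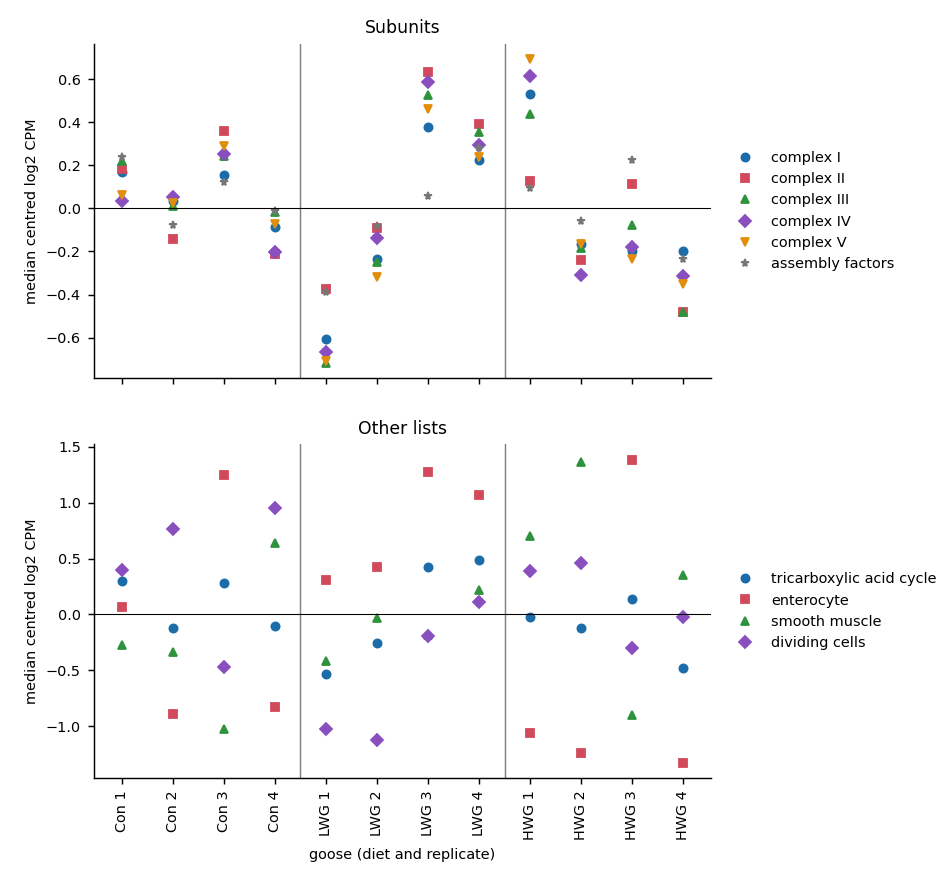
Median of log2 CPM minus each gene's mean over 12 geese, for each goose, for the subunits by complex and the complex I assembly factors (upper panel) and for 4 other lists (lower panel, with a wider axis). The medians of the complexes run from −0.72 for complex III in LWG replicate 1 to 0.69 for complex V in HWG replicate 1. In that goose complex II is at 0.13 and the assembly factors are at 0.10. The enterocyte and smooth muscle lists order the geese differently from complexes I, III, IV and V.

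The cell type lists did not order the geese as the median of all members did. The enterocyte markers had medians of 1.24 in Con replicate 3, 1.27 and 1.06 in LWG replicates 3 and 4 and 1.38 in HWG replicate 3, and of −1.06, −1.24 and −1.33 in HWG replicates 1, 2 and 4. HWG replicate 1, the highest goose for the members, was thus among the lowest for enterocyte markers, and LWG replicate 1, the lowest for the members, stood at 0.31. Complex II went with the enterocyte markers in part. Its median was 0.36 in Con replicate 3, 0.63 and 0.39 in LWG replicates 3 and 4, and −0.24 and −0.48 in HWG replicates 2 and 4. It was −0.38 in LWG replicate 1, and 0.13 and 0.11 in HWG replicates 1 and 3, unlike these markers. Of the 17 markers, 5 were lower in HWG than in LWG geese at an unadjusted p under 0.05 (10.6% of all genes in either direction) and 1 was higher in LWG than in Con geese (6.63%), none at an adjusted p, and the median log2 fold change in HWG against LWG geese was −1.11. The 12 genes of dividing cells had medians of −1.02 and −1.12 in LWG replicates 1 and 2, with the members at −0.61 and −0.24. They had 0.46, −0.30 and −0.03 in HWG replicates 2, 3 and 4, with the members at −0.16, −0.15 and −0.25. In Con replicate 3 and LWG replicate 3 they had −0.47 and −0.20, with the members at 0.20 and 0.40. In HWG replicate 1 they had 0.39, with the members at 0.45. Their highest geese were Con replicates 4 and 2, at 0.95 and 0.77. Of these genes, 8 were lower in LWG than in Con geese (6.63% of all genes) and 2 were higher in HWG than in LWG geese (10.6%) at an unadjusted p under 0.05, and none passed at an adjusted p. Of 10 smooth muscle markers, 3 were higher in HWG than in Con geese (4.16% of all genes) and 2 in HWG than in LWG geese (10.6%) at an unadjusted p under 0.05. Medians of the 4 distal and 5 proximal markers of the small intestine ran from −2.31 to 2.41 and from −3.23 to 2.98 over the geese. Those of 9 lymphocyte and 8 neuron and glia genes ran from −0.64 to 0.78 and from −0.55 to 0.61. The lymphocyte genes were highest in LWG replicate 1, the lowest goose for the members, and 5 of the 9 were higher in LWG than in Con geese at an unadjusted p under 0.05 (6.63% of all genes), with a median log2 fold change of 0.58 and none at an adjusted p. In HWG against LWG geese 1 of the 9 was lower (10.6% of all genes), and 1 of the 8 neuron and glia genes was higher in LWG than in Con geese. The split of the geese by GATA4 and HOXA10 ran with the members within each diet. The geese with HOXA10 had medians of 0.001 and −0.07 in Con replicates 2 and 4, −0.61 and −0.24 in LWG replicates 1 and 2 and −0.25 in HWG replicate 4. The others had 0.14 and 0.20 in Con, 0.40 and 0.24 in LWG and 0.45, −0.16 and −0.15 in HWG geese. Across diets the split was not complete, as HWG replicates 2 and 3 lay below Con replicates 2 and 4. The part of cell composition and of position along the gut in the levels of the subunits was not tested.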

How the data were processed

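Jejunal RNA of 12 geese was sequenced, 4 per diet. The authors filtered reads with fastp, aligned them with HISAT2 and estimated levels with StringTie, for which versions are not given in the sources used here. The deposited table holds counts, as whole numbers for each gene in each goose, and the authors also deposited FPKM values, scaled by transcript length and library size. How the counts were made, and whether strand was used, is not given in the sources used here, so reads of overlapping antisense genes cannot be told apart. Scaffold names differ from the assembly of the methods, so no positions are given, and all 49 members were matched to a RefSeq table of another goose assembly for names only.

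In R 4.3.3, edgeR 4.0.16 (filterByExpr, TMM) left 14863 genes. A quasi-likelihood model with the diet as its only factor was fitted to all 12 libraries, and p-values were adjusted over all genes by the Benjamini-Hochberg method. The common biological coefficient of variation was 0.384. Intervals are 95% intervals from the fit. Replicates are separate geese, and no sequencing batch is given in the sources used here.

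The members and the 13 gene lists were chosen with earlier results of these data known. None of the erythrocyte genes or of the genes in mitochondrial DNA on these lists was analysed here. Named were the 2 highest members by FPKM of each complex, the 5 members with the smallest p in each comparison, isoform pairs (COX4I1, COX6A1, COX7A2, ATP5G1 and ATP5G3) and one core set (NDUFS1, NDUFV1, SDHA, SDHB, UQCRFS1, COX4I1, ATP5A1 and ATP5B). Other genes were named for an extreme or a count after their values were seen. As alternatives, DESeq2 1.42.0, limma 3.58.1 on log2(FPKM + 0.1) and log2(FPKM + 1), other scalings and filters, counts divided by 4, a robust prior, the compared groups alone, a replicate block and each library left out were run. Summaries were made in Python 3.11.15 with pandas 2.3.3 and scipy 1.17.1, and plots with matplotlib 3.10.9.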

Additional observations from a re-analysis of the deposited data

Results flagged for a closer look

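Each group of 4 geese was searched for a goose that lay far from the other 3, measured by its gap to the nearest goose over the range of the group (Dixon's ratio). Of 96 groups searched, 8 held such a goose, and chance gives about 1 in 20 groups. In all 8 it was HWG replicate 1, above the other HWG geese. Of single genes, these were ATP5G1 at 300.3 CPM and ATP5G3 at 430.1 CPM, which encode subunit c of the ATP synthase, NDUFV1 at 93.7 CPM and NDUFB1 at 125 CPM of complex I, and COX6A1 at 178 CPM of complex IV. The medians on the centred log2 scale were 0.45 for all 49 members, 0.53 for complex I and 0.61 for the further subunits of complex IV. These groups share 1 library and are not independent of each other. In the same goose the shortest of 5 equal length classes of all tested genes had a median of 0.27.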

How the results depend on the processing

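Over 26 alternatives (1 of them, the 42 subunits without the assembly factors and ATP5S, for medians only), 578 of 603 recomputed values kept their direction and side of the threshold (single genes), stayed within 1.5 times (counts) or moved by less than the SD between geese (medians). The SD between geese, pooled within the diets, was 0.33. The median log2 fold changes of the members in the main fit were −0.07, −0.04 and 0.04. A median could therefore change sign and still be counted as kept. Of the 78 medians, 77 were kept by this rule, while 11 changed sign. The 11 were 2 in LWG against Con, 5 in HWG against Con and 4 in HWG against LWG geese. For single genes, the smallest adjusted p of the main fit was 0.527 (edgeR), far from the threshold of 0.05. No member reached an adjusted p under 0.05 in any alternative (smallest 0.0996, NDUFA4 in HWG against LWG geese without HWG replicate 3). DESeq2 called 37, 5 and 110 genes of the whole table in LWG against Con, HWG against Con and HWG against LWG geese, where edgeR called 0. The replicate block called 8 genes in HWG against LWG geese and no member had an unadjusted p under 0.05 with it. Same-numbered geese had correlations of deviations from −0.28 to 0.38, above 0.1 in 6 of 12 pairs. Geese with different numbers were not compared in this way, so these values cannot tell whether the numbers pair the geese. Members with an unadjusted p under 0.05 counted 1 in LWG against Con geese by limma with either pseudocount (8.49% and 8.36% of all genes) and 1 in HWG against LWG geese with library totals only (11.2%). Each library was also left out in turn. Genes called over the table then ranged from 0 to 1, 0 to 2 and 0 to 108 in the 3 comparisons. The 108 were called without HWG replicate 3. Members with an unadjusted p under 0.05 ranged from 0 to 1, 0 to 2 and 0 to 2. The 2 and 2 were found without HWG replicate 3, beside 10.96% and 19.9% of all genes. Of the counts of 1, NDUFA12 passed without LWG replicate 3 in LWG against Con geese (5.82% of all genes). NDUFA2 passed without HWG replicate 2 in HWG against Con geese (3.31%). NDUFAF1 passed without LWG replicate 1 in HWG against LWG geese (12.3%). The median log2 fold change of the members ranged from −0.254 to 0.0749, −0.242 to 0.0608 and −0.156 to 0.225. Without LWG replicate 1 and HWG replicate 1 together, the table had 2 calls in LWG against Con and 1 in HWG against Con geese, the members with an unadjusted p under 0.05 were 2 in HWG against Con geese (NDUFA5 and NDUFC2, beside 2.99% of all genes) and 3 in HWG against LWG geese (8.50%), and the median in the latter was −0.32. Without both libraries the fold change reversed for ATP5S in HWG against Con geese (−0.0581) and for NDUFA2 in HWG against LWG geese (−0.0444). With each library left out in turn it ranged from −0.0579 (without HWG replicate 1) to 0.722 for ATP5S in HWG against Con geese and, in HWG against LWG geese, from −0.419 to 0.0267 (without LWG replicate 3) for SDHC and from −0.449 to 0.0217 (without LWG replicate 4) for NDUFV3. The cause was not tested. Small changes are limited by the spread between 4 geese, since few intervals stayed within 1.5-fold.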
